A study of Mus musculus with 18 samples.

Results

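The effect of the metastatic site on gene expression was examined across all type 1 lymphocytes sorted from livers of MC38-injected mice. These were 12 of the 18 libraries of the series: 6 from liver metastases (LM) and 6 from metastasis-free liver (MFL), which is the parenchyma around the metastases. The mice were female C57BL6/J animals, 8 to 10 weeks old when MC38 cells, a mouse colon adenocarcinoma line, were injected into the spleen, and the livers were taken 20 days later. All sorted cells were live, lineage negative, CD45+ and NKp46+. MFL NK cells were CD49a- CD49b+, MFL ILC1 were CD49a+ CD49b-, LM CD49a- NK cells were CD49a- CD49b+, and LM CD49a+ NK cells were CD49a+ CD49b+, with 3 libraries of each population. Each library came from a pool of 6 to 8 samples, so a library is a pool and not 1 mouse. The paper states that the pools were collected in 3 independent sortings. The fits treat every library as independent, and a p-value measures the spread between libraries. If both populations of a site came from the same sorting, its 6 libraries are not 6 independent pools, and p-values can be too small. The LM CD49a+ NK libraries carry ILC1 in their titles and were assigned by their surface label. No healthy liver was among the bulk libraries, so every MFL library came from a liver that also held metastases.

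A pair of features of the design bears on every value below. LM tissue was digested warm with Liberase and DNase I, whereas MFL parenchyma was smashed and filtered without enzyme or a stated incubation. The site and the dissociation, its warming included, therefore cannot be told apart. In the CD49a+ cells, site also coincides with the sorted cell type, because the LM cells were CD49b+ NK cells and the MFL cells were CD49b- ILC1. The only comparison of the same surface phenotype is that of LM CD49a- NK cells with MFL NK cells.

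NK cells are circulating cytotoxic lymphocytes, and ILC1 are tissue-resident relatives that share NKp46 but keep CD49a, a collagen-binding integrin chain. TGF-β acts on NK cells through SMAD proteins and can move them toward an ILC1-like state, while inducing its own feedback inhibitors. Lymphocytes that are activated or handled ex vivo induce immediate early genes, and protein damage or warming induces heat shock chaperones.

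Library totals lay between 8795721 and 14386834 estimated counts. The 10 markers of type 1 lymphocytes, among them *Ncr1*, *Klrb1c*, *Tbx21* and *Eomes*, had counts at both sites, and their summed level was 9151 to 15743 CPM (counts relative to the library total, scaled by edgeR's TMM) over the 12 libraries. Genes with at least 10 counts averaged 10903 in LM and 12557 in MFL libraries, with ranges of 9608 to 12601 and 11651 to 13218 (exact permutation of site labels within CD49a status, 2-sided p = 0.03, adjusted p = 0.147 over all library measures). The smallest p that the 400 arrangements allow is 0.005.

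A small share of genes was called for site in the main fit, and a larger one by other tools. In an additive fit of site and CD49a status with edgeR's quasi-likelihood test, 238 of 13594 tested genes (1.75%) were called at an adjusted p under 0.1. Of these, 156 (1.15% of genes tested) were higher in LM and 82 (0.603%) were lower. In the same fit 1488 genes had an unadjusted p under 0.05. DESeq2 called 644 genes and limma-voom 650, so the count does not measure the extent of the shift. The median log2 fold change (LM minus MFL) of all tested genes was −0.09. With limma-voom in place of edgeR, 42.8% of the calls were higher in LM, against 65.5% in the edgeR fit. The count of calls depended on single libraries. It was 150, 135 and 134 without MFL NK 1, 2 or 3, and 101, 85 and 78 without MFL ILC1 1, 2 or 3. It was 135 without LM CD49a+ NK 1, 98 without LM CD49a+ NK 3 and 389 without LM CD49a- NK 2. In bulk RNA of sorted pools, fewer cells of a type and less RNA per cell cannot be told apart.

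The 6 LM and 6 MFL libraries did not overlap for 59 genes that were higher in LM (0.434% of genes tested) and for 163 that were lower (1.2%). Of these, 42 higher and 38 lower genes were also called (0.588% together). All 42 higher genes had a mean of at least 5 CPM, whereas 22 of the 38 lower genes had a mean under 5 CPM and 16 had 0 counts in every LM library. The higher genes were therefore measured at more depth than most of the lower ones.

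The shift was next read within each CD49a status. Among CD49a- cells (LM against MFL NK cells) 10 genes were called (0.0736%), and among CD49a+ cells, where ILC1 stand for MFL, 486 were (3.58%). Of the 42 higher non-overlapping genes, 5 were also called among CD49a- cells (*Hspa1a*, *Hspa1b*, *Nr4a3*, *Tgfb1* and *Car2*) and 30 among CD49a+ cells. Of the 38 lower ones, 1 and 10 were. The 1 called among CD49a- cells was *mt-Atp6*, which is not read as a change in expression below. The interaction of site and CD49a status was called for 140 of all genes (1.03%) and for 1 of the 80 non-overlapping called genes, *Lmna*. An interaction that misses the threshold does not show that the shift was equal in both. Within CD49a- cells the count was 1, 3 and 1 without MFL NK 1, 2 or 3, 5 without MFL ILC1 1 and 4 without LM CD49a- NK 1. It was 86 without LM CD49a- NK 2, 110 without LM CD49a- NK 3 and 22 without LM CD49a+ NK 3. Within CD49a+ cells it was 280, 273 and 257 without MFL ILC1 1, 2 or 3, and 316 without LM CD49a+ NK 3. For the interaction it was 76, 75 and 89 without MFL NK 1, 2 or 3, 84 without MFL ILC1 2 and also without MFL ILC1 3, and 256 without LM CD49a- NK 3.

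**Figure D1:**
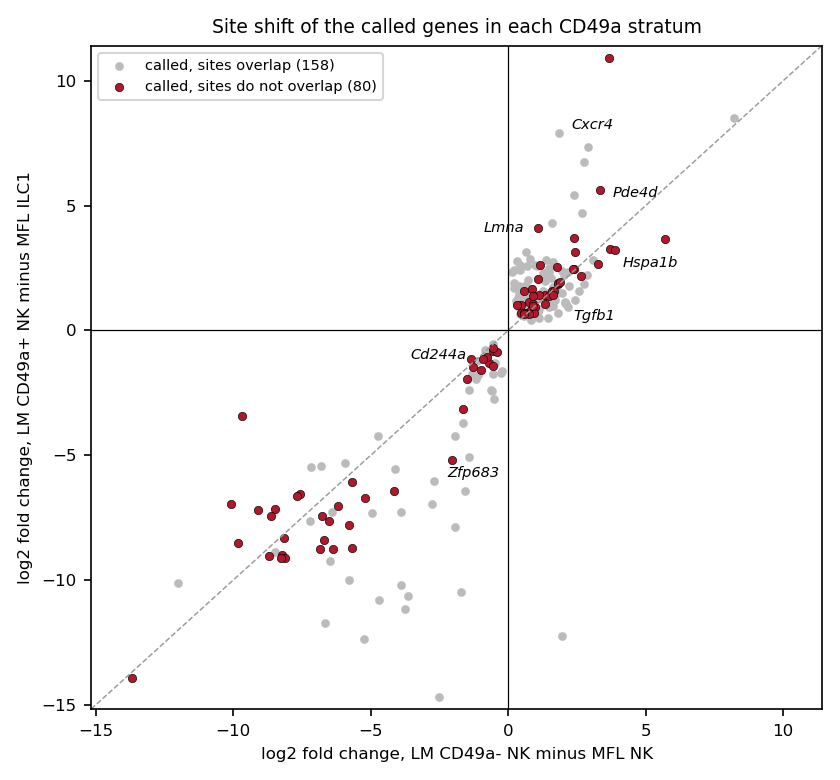
Log2 fold change of the 238 called genes between sites within CD49a- cells (x axis) and within CD49a+ cells (y axis). Each point is a gene, red where the 6 LM and 6 MFL libraries did not overlap (80 genes) and gray where they did (158), and the dashed line marks equal shifts. *Hspa1b* and *Tgfb1* lie near the line, while *Lmna*, *Cxcr4* and *Zfp683* lie farther from 0 on the y axis.

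The inducible heat shock genes *Hspa1a* and *Hspa1b*, which encode near-identical HSP70 chaperones, were higher in every LM library than in every MFL library. *Hspa1a* (chr17:35188166-35191132, GRCm39) was at 225.5, 592.5 and 907.6 CPM (lowest, median and highest) in LM and at 9.38, 45.7 and 114.3 CPM in MFL. The lowest LM library was above the highest MFL library, and the log2 fold change was 3.56 (SE 0.50, adjusted p = 0.00185). *Hspa1b* (chr17:35175412-35178214) was at 454.4, 926.7 and 1654.1 CPM in LM and at 26.0, 80.8 and 162.0 CPM in MFL. The sites again did not overlap, with a log2 fold change of 3.50 (SE 0.41, adjusted p = 0.000338). Within CD49a- cells the shift of *Hspa1b* was 3.72 (adjusted p = 0.0201) and within CD49a+ cells 3.28 (adjusted p = 0.00297). The genes share 63.8% and 67.6% of their 31-base words, so the division of reads between them is uncertain. Their sum, at 679.8 to 2508.2 CPM in LM and 35.3 to 276.2 CPM in MFL, does not depend on that division.

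The promoters of this pair are shown because they carry the same heat shock element at the same place. The windows run from 250 bases before to 50 bases after the annotated start, on the minus strand of GRCm39, at chr17:35191083-35191382 for *Hspa1a* and chr17:35178165-35178464 for *Hspa1b*, and capitals mark GAANNTTC:
Hspa1a: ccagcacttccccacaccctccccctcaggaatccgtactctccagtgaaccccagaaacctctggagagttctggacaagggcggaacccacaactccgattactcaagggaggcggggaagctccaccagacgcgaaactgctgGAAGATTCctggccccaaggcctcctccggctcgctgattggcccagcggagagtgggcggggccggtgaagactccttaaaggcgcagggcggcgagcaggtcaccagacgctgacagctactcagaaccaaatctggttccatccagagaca
Hspa1b: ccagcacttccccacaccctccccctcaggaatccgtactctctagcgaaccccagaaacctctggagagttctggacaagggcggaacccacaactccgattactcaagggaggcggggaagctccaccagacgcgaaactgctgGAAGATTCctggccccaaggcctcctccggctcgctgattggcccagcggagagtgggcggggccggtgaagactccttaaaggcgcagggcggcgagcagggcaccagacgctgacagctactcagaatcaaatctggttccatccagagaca
The windows are identical at 296 of 300 positions. GAANNTTC was present in 5.92% of the 11159 promoters of tested protein-coding genes and in 2 of the 42 promoters of higher non-overlapping genes, which are this pair.

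The other called chaperones had shifts of up to 0.90. Of 18 heat shock genes tested, 6 rose and 0 fell, against 1.15% of all genes higher, and the list's median log2 fold change was 0.69. The count was 9 with DESeq2 or limma-voom and 11 without a filter on low counts. *Hsp90ab1*, the constitutive HSP90, was at 1902.0, 2692.7 and 3123.2 CPM in LM and at 1211.5, 1550.9 and 1856.8 CPM in MFL. The sites did not overlap, although the shift was only 0.74 (SE 0.17, adjusted p = 0.0536). *Dnajb1*, an HSP40 cochaperone of HSP70, *Hspd1*, the mitochondrial HSP60, and *Hsp90aa1* rose with overlapping sites, by 0.90, 0.72 and 0.60. The count of 6 fell to 2 without any single MFL ILC1 library or MFL NK 3, to 3 without MFL NK 1 or any single LM CD49a+ NK library, and to 4 without MFL NK 2.

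Of 39 immediate early genes tested, 13 rose and 0 fell, against 1.15% of all genes higher, and the median was 0.96. DESeq2 called 22 of the 39, limma-voom 21 and edgeR without a filter on low counts 24. *Nr4a3* (chr4:48045153-48086447), an orphan nuclear receptor induced by antigen receptor, calcium and cAMP signals, was the 1 member without overlap. It was at 323.7, 1019.6 and 2545.8 CPM in LM and at 111.8, 159.7 and 229.4 CPM in MFL, with a log2 fold change of 2.96 (SE 0.41, adjusted p = 0.00185). Its relatives *Nr4a1* (3.68, SE 0.59, adjusted p = 0.00523) and *Nr4a2* (1.85, SE 0.41, adjusted p = 0.0433) rose with overlap. The 13 also held *Fosl2*, the AP-1 subunit, the NF-κB regulators *Nfkbia*, *Nfkbiz* and *Nfkbid*, the phosphatase *Dusp5*, and *Socs3*, a feedback inhibitor of STAT3.

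Not every classical immediate early gene was called. Of the 39 tested, 36 had positive shifts and 26 had an unadjusted p under 0.05. *Fos* averaged 500 CPM in LM and 436 CPM in MFL (log2 fold change 0.21, SE 0.31, adjusted p = 0.901), and *Jun* 1290 and 1160 CPM (0.16, SE 0.22, adjusted p = 0.891). *Egr1* averaged 220 and 119 CPM (0.89, SE 0.26, adjusted p = 0.141). These 3, the best known members, were picked after their values were seen. None of them passed the threshold, while *Nr4a1*, *Nr4a3* and *Fosl2* did.

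The LM libraries differed among themselves in this list. In 59% of its genes the library numbered 3 was the highest and that numbered 2 the lowest in both LM populations. That order held for 35.3% of the 156 higher genes and for 3.1% of all genes tested. It held for 4 of 16 genes of the TGF-β list (25%) and for 0 of 18 heat shock genes. Among higher genes named below, *Tgfb1*, *Smad7*, *Skil*, *Tgif1*, *Nfkb1*, *Nfkb2*, *Stat3*, *Crem* and *Litaf* had this order. *Hif1a*, *Traf1* and *Pde4d* did not. The immediate early list's level, as the median of log2(CPM + 1) relative to the MFL mean, was 1.56 and 1.36 in LM CD49a- NK 3 and CD49a+ NK 3. It was −0.07 and −0.2 in the libraries numbered 2, within the MFL range of −0.26 to 0.16. The heat shock level was 0.34 to 0.84 in all 6 LM libraries, against −0.18 to 0.31 in MFL. The count of 13 immediate early calls was 6 without both LM libraries numbered 3, an alternative added after the data were seen. It was 7 without LM CD49a+ NK 3, MFL ILC1 2 or MFL ILC1 3, and 24 without LM CD49a- NK 2.

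**Figure D2:**
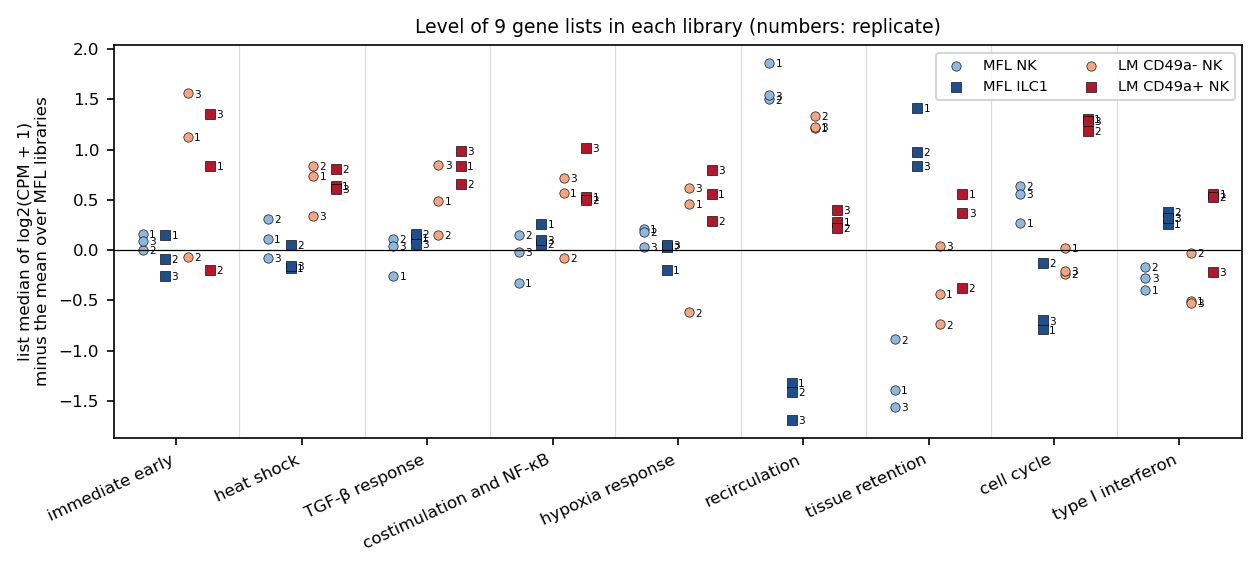
Median over the tested members of 9 gene lists of log2(CPM + 1) minus each gene's mean over the 6 MFL libraries (y axis), per library. Circles are CD49a- NK cells, squares CD49a+ NK cells or ILC1, blue MFL and red or orange LM, and the small numbers give the replicate. Heat shock levels of all LM libraries (0.34 to 0.84) exceed those of all MFL libraries (up to 0.31), whereas immediate early levels of the LM libraries numbered 2 lie among those of MFL.

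A pair of the largest shifts were in genes that take part in cAMP signaling, for which no list was counted. *Pde4d* (chr13:108586482-110092497), a phosphodiesterase that degrades cAMP, was at 9.42, 51.8 and 107.8 CPM in LM and at 0.934, 2.41 and 7.49 CPM in MFL. No LM library was as low as an MFL library, and the log2 fold change was 4.42 (SE 0.62, adjusted p = 0.00202). *Crem*, a cAMP-responsive transcription factor gene whose short products repress, was at 28.2, 66.4 and 159.1 CPM in LM and at 9.08, 15 and 22.8 CPM in MFL, also without overlap (2.41, SE 0.41, adjusted p = 0.00725). The shift of *Crem* was 2.35 within CD49a- and 2.47 within CD49a+ cells. The *Nr4a3* promoter, at chr4:48044903-48045202 on the plus strand, is shown because the core of the cAMP response element, TGACG or its reverse complement CGTCA, occurs 4 times in it, in capitals:
Nr4a3: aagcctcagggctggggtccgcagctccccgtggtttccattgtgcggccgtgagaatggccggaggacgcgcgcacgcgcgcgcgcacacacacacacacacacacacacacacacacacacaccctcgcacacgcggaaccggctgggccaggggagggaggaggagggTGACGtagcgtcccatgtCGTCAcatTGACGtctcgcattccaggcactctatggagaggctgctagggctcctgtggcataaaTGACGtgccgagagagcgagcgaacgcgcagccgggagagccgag
The core was present in 31.2% of all 11159 promoters and in 14 of the 42 promoters of higher non-overlapping genes (33.3%), a share near that of all promoters. A match describes these letters only and does not show that a factor binds.

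Part of the TGF-β pathway rose, the ligand included. Of 16 tested, 6 rose and 0 fell, against 1.15% of all genes higher, and the median was 0.5. Of the 6, 4 did not overlap, as 0.434% of all genes did in this direction. With at least 5 CPM in 3 libraries the median was 1.22. *Tgfb1* (chr7:25386390-25404506), the ligand TGF-β1, was at 305.0, 442.5 and 758.6 CPM in LM and at 148.7, 163.7 and 185.7 CPM in MFL. The sites did not overlap, and the shift was 1.60 overall (SE 0.21, adjusted p = 0.00132), 1.61 within CD49a- cells (adjusted p = 0.0711) and 1.59 within CD49a+ cells (adjusted p = 0.00691). It is 1 of the 5 higher genes that the comparison of CD49a- cells alone also called.

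Feedback inhibitors and corepressors of SMAD signaling rose as well. *Smad7*, an inhibitory SMAD induced by TGF-β, was at 181.0, 372.5 and 725.0 CPM in LM and at 99, 120.8 and 127.9 CPM in MFL (log2 fold change 1.86, SE 0.30, adjusted p = 0.00586). *Skil* (chr3:31148816-31176740), which encodes the corepressor SnoN, was at 286.7, 564.1 and 1225.9 CPM in LM and at 146.6, 178.9 and 227.6 CPM in MFL (1.85, SE 0.33, adjusted p = 0.00952). *Tgif1*, a homeodomain corepressor of SMAD complexes, was at 68.5, 167.4 and 560.1 CPM in LM and at 13.4, 28.6 and 66.8 CPM in MFL (3.04, SE 0.47, adjusted p = 0.00453). None of the 3 overlapped between sites, and *Tgif1* had the narrowest gap. Its relative *Tgif2* also did not overlap, at 6.65 to 39.5 CPM in LM and 1.44 to 6.07 CPM in MFL (2.42, SE 0.63, adjusted p = 0.085). *Pmepa1*, a membrane inhibitor of SMAD activation, and the corepressor *Ski* rose with overlap, by 2.94 and 0.64. The count of 6 was 5 or 6 without any single library, and 4 without both LM libraries numbered 3.

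The *Skil* promoter, at chr3:31148566-31148865 on the plus strand, is shown because it holds the SMAD element CAGAC or its reverse complement GTCTG 4 times, in capitals:
Skil: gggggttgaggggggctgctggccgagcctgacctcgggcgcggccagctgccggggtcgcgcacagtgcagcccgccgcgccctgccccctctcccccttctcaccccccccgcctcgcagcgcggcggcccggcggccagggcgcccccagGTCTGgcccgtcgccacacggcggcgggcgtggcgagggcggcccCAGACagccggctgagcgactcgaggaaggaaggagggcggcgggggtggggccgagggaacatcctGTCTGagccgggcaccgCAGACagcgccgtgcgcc
CAGAC was common, in 47.3% of all promoters and in 18 of the 42 of higher non-overlapping genes. The AP-1 site TGANTCA was in 5.05% of all promoters and in 5 of the 42 (*Abcb1b*, *Ctla2a*, *Hsp90ab1*, *Lmna* and *Traf1*). The hypoxia response element ACGTG was in 26.3% and 10 of the 42, and the E-box CACGTG, which contains it, in 10.2% and 6 of the 42. All motifs were searched on both strands.

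NF-κB and costimulation genes formed another group. Of 19 tested, 6 rose and 0 fell, against 1.15% of all genes higher, and the median was 0.63. Limma-voom called 9 of the 19. *Nfkb2*, the p100/p52 subunit, was at 127.5, 267.1 and 474.4 CPM in LM and at 83.4, 95.3 and 118.2 CPM in MFL (1.52, SE 0.25, adjusted p = 0.00721). *Nfkb1*, the p105/p50 subunit, was at 380.4 to 791.0 CPM in LM and 225.4 to 329.1 CPM in MFL (0.97, SE 0.20, adjusted p = 0.0247). *Traf1*, an adaptor of TNF receptor family members, was at 206.1 to 417.1 CPM in LM and 117.6 to 197.5 CPM in MFL (0.82, SE 0.17, adjusted p = 0.0317). None of these 3 overlapped. *Tnfrsf9*, the receptor 4-1BB, *Tnfrsf1b*, the receptor TNFR2, and *Birc3*, an inhibitor of apoptosis, rose with overlap by 0.95, 1.21 and 1.21. The count was 4 without MFL ILC1 2 or 3, MFL NK 1 or 3, or LM CD49a+ NK 3, and 2 without both LM libraries numbered 3.

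Cytokine signaling and hypoxia each contributed 1 named gene without overlap. *Stat3*, which transmits IL-6 family, IL-10 and IL-21 signals, was at 462.9, 759.0 and 1182.0 CPM in LM and at 208.1, 325.1 and 343.3 CPM in MFL. Its shift was 1.37 (SE 0.22, adjusted p = 0.00501), with 1.34 in CD49a- and 1.41 in CD49a+ cells. *Hif1a*, the oxygen-regulated subunit of HIF-1, was at 144.4, 166.7 and 244.0 CPM in LM and at 79.2, 93.0 and 103.2 CPM in MFL (0.94, SE 0.17, adjusted p = 0.0114). Of 26 cytokine signaling genes 5 rose, also *Il12rb2*, *Il18r1*, *Ifngr1* and *Socs3*, and 0 fell. Within CD49a- cells these last genes shifted by 0.44, 0.14, 0.62 and 1.48, and none was called there. Within CD49a+ cells, where ILC1 stand for MFL, they shifted by 0.84, 2.34, 1.77 and 2.33. Of 17 hypoxia genes 2 rose, *Hif1a* and *Vegfa*, the endothelial growth factor, and 0 fell. Both lists stand against 1.15% of all genes higher. *Vegfa* was at 72.5 to 1215.7 CPM in LM and 1.19 to 108.4 CPM in MFL (5.00, SE 0.93, adjusted p = 0.0126), with overlap, and its interaction was called (4.42, adjusted p = 0.0905). The cytokine count was 2 without any single MFL ILC1 library, and 3 without MFL NK 1, MFL NK 2 or any single LM CD49a+ NK library. The hypoxia count was 2 in every such fit. Without a filter on low counts the cytokine count was 8 and the hypoxia count 4, and limma-voom called 9 cytokine signaling genes. With the replicate number as a block the cytokine count was 3.

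The largest shift among the higher non-overlapping genes was that of *Ret*, a receptor tyrosine kinase for the GDNF family. It was at 5.62, 15.5 and 49.0 CPM in LM and at 0.0, 0.163 and 3.08 CPM in MFL, all 3 MFL ILC1 libraries being at 0 (5.99, SE 1.38, adjusted p = 0.0503). *Spsb1*, a ubiquitin ligase adaptor, was at 3.54 to 27.8 CPM in LM and 0.0 to 3.13 CPM in MFL (4.64, SE 1.20, adjusted p = 0.0846). *Abcb1b*, the drug exporter P-glycoprotein, was at 36.0 to 93.3 CPM in LM and 0.732 to 18.6 CPM in MFL (2.79, SE 0.61, adjusted p = 0.0388). These 3 separated the sites at low to moderate levels. *Litaf*, a lysosomal membrane protein, was at 77.2, 208.7 and 505.5 CPM in LM and at 37.9, 44.6 and 66.6 CPM in MFL (2.43, SE 0.37, adjusted p = 0.00428).

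*Lmna*, which encodes the nuclear lamina proteins lamin A and C, differed in size between the strata. It was at 97.4, 168.1 and 244.5 CPM in LM and at 4.45, 33.3 and 88.2 CPM in MFL, where the ILC1 libraries were the lowest. The shift was 2.57 (SE 0.55, adjusted p = 0.0352), made of 1.07 in CD49a- cells (adjusted p = 0.726) and 4.11 in CD49a+ cells (adjusted p = 0.00017), and the interaction was 3.04 (adjusted p = 0.0392). *Car2*, carbonic anhydrase 2, named after its values were seen, was at 247.6 to 424.0 CPM in LM and 85.6 to 132.1 CPM in MFL. Its shift of 1.56 (SE 0.19, adjusted p = 0.000475) was called in CD49a- cells (1.07, adjusted p = 0.0711) and in CD49a+ cells (2.05, adjusted p = 1.8e-05). The other higher non-overlapping genes included the transcription regulators *Bcl6*, *Rara*, *Satb1* and *Hivep1*, the phosphatase *Inpp5d* (SHIP1), the actin gene *Actg1* and the RNA-binding *Ptbp1*.

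**Figure D3:**
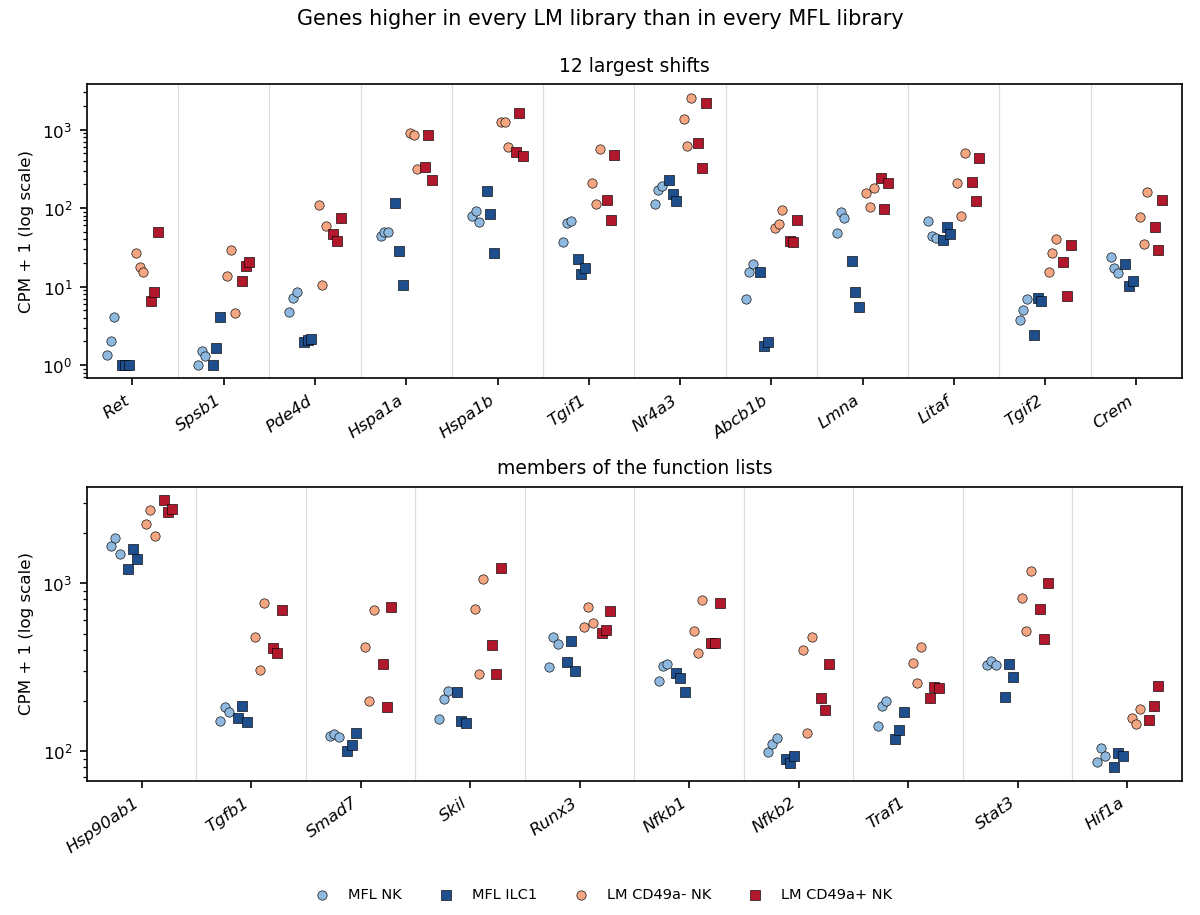
CPM + 1 (log scale) in each of the 12 libraries for the 12 largest shifts (top) and for function list members (bottom) among genes higher in every LM than in every MFL library. Circles are CD49a- NK cells, squares LM CD49a+ NK cells (red) or MFL ILC1 (dark blue), light blue is MFL NK and orange LM CD49a- NK. For *Hspa1b* the LM libraries span 454.4 to 1654.1 CPM and the MFL libraries 26.0 to 162.0 CPM.

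Circulation genes had unlike medians in the CD49a strata, a difference that was not tested for the list. Of 18 recirculation genes 3 rose, against 1.15% of all genes higher. The list's median was 0.99, but it was −0.22 within CD49a- cells and 2.38 within CD49a+ cells. The median turned to −0.10 with limma-voom. The count was 8 with the average of both strata, 10 without a filter on low counts, 5 with DESeq2 and 1 with the replicate number as a block. *Cxcr4*, a chemokine receptor for CXCL12, was at 92.7 to 723.2 CPM in LM and 0.568 to 140.0 CPM in MFL (4.61, SE 1.13, adjusted p = 0.0684), with shifts of 1.85 in CD49a- cells and 7.89 in CD49a+ cells and an interaction of 6.04 (adjusted p = 0.0125). *Tcf7*, the transcription factor TCF-1, was at 199.3 to 452.7 CPM in LM and 69.6 to 229.5 CPM in MFL (1.19, SE 0.29, adjusted p = 0.0615). Both overlapped between sites. Of 17 retention genes 1 rose and 3 fell, against 1.15% of all genes higher and 0.603% lower. The count of 4 was 7 with DESeq2 or limma-voom, 8 with the average of both strata and 10 without a filter on low counts, and the median of −0.04 turned to 0.11 with at least 5 CPM in 3 libraries. *Runx3*, a transcription factor of resident and cytotoxic lymphocytes, was the 1 that rose, at 506.5, 562.7 and 716.4 CPM in LM and with a median of 386.0 and a highest value of 479.5 CPM in MFL, without overlap (0.62, SE 0.17, adjusted p = 0.0957), with its call kept in 1 of 12 fits that left out a library. *Cxcr6*, a chemokine receptor of liver-resident cells, *Zfp683*, which encodes Hobit, and *Inpp4b* fell. They were high mainly in MFL ILC1, with means of 152.6, 218.9 and 433.5 CPM, against 0.175, 0.468 and 4.33 CPM in MFL NK cells. LM CD49a+ NK cells averaged 3.21, 3.33 and 82.4 CPM, so their *Inpp4b* was above that of MFL NK cells. None of these genes was called within CD49a- cells. The recirculation count of 3 was 0 without LM CD49a+ NK 1, MFL ILC1 2 or MFL ILC1 3, and 1 without LM CD49a+ NK 3 or MFL ILC1 1. The retention count of 4 was 2 without MFL NK 2, LM CD49a+ NK 1 or 3, or any single MFL ILC1 library, and 6 without LM CD49a- NK 2.

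Cell cycle genes also had unlike medians in the strata. Of 40 cell cycle genes 1 rose, a share near the 1.15% of all genes, and it was *Top2a*, a topoisomerase of dividing cells, at 92.6 to 328.4 CPM in LM and 25.2 to 131.5 CPM in MFL (1.56, SE 0.42, adjusted p = 0.0957). The call of *Top2a* was lost with limma-voom (adjusted p = 0.189), with the replicate number as a block (0.132) and with at least 5 CPM in 3 libraries (0.114), while DESeq2 called 4 genes of the list. The list's median was 0.57 for site and −0.02 with limma-voom, with −0.45 in CD49a- cells and 1.99 in CD49a+ cells. *Mki67*, the proliferation marker Ki-67, did not pass for site (1.22, SE 0.38, adjusted p = 0.155), but its interaction did (2.11, adjusted p = 0.067). Of 21 glycolysis genes 1 rose, against 1.15% of all genes higher. It was the phosphofructokinase *Pfkp*, which rose by 0.96 (adjusted p = 0.0716), with 0.22 in CD49a- and 1.71 in CD49a+ cells. DESeq2 called 4 of the 21 and limma-voom 3. *Slc2a3*, the glucose transporter GLUT3, did not pass (−0.72, SE 0.20, adjusted p = 0.113). The calls of *Top2a* and *Pfkp* were kept in 3 and 5 of the 12 fits that left out a library.

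Of 20 cytotoxic genes 1 rose, against 1.15% of all genes, *Serpinb6b*, a serine protease inhibitor (1.13, SE 0.27, adjusted p = 0.0625), and *Serpinb9*, an inhibitor of granzyme B, did not pass (1.28, SE 0.35, adjusted p = 0.102). The cytotoxic count was 4 with DESeq2, limma-voom or the average of both strata, 5 without a filter on low counts, 3 without LM CD49a- NK 1 or 2, 2 without MFL NK 1, and 0 without LM CD49a+ NK 1 or 3, LM CD49a- NK 3, MFL ILC1 2 or 3, or MFL NK 2 or 3. The list's median of 0.28 was −0.03 with limma-voom. Of 39 type I interferon genes edgeR called 0, with 6 at an unadjusted p under 0.05, and DESeq2 and limma-voom called 3 each. Without LM CD49a- NK 2 edgeR called 2. *Ifi44*, an interferon-induced gene, was at 7.07 to 24.8 CPM in LM and 1.47 to 3.65 CPM in MFL, which did not overlap, and did not pass (2.47, SE 0.75, adjusted p = 0.149). *Ifi204* did not pass either (1.67, SE 0.56, adjusted p = 0.191). Of 24 genes of endoplasmic reticulum stress and amino acid response 1 rose, against 1.15% of all genes higher. It was the amino acid transporter *Slc7a5* (1.82, SE 0.44, adjusted p = 0.0627), while *Dnajb9* did not pass (−0.76, SE 0.30, adjusted p = 0.317). The calls of *Serpinb6b* and *Slc7a5* were each kept in 5 of the 12 fits that left out a library.

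*Cd244a* (chr1:171386708-171437315), the SLAM family receptor 2B4 of NK cells, was at 130.1, 187.7 and 263.7 CPM in LM and at 293.6, 387.8 and 477.3 CPM in MFL. The sites did not overlap, and *Cd244a* fell by 0.99 on the log2 scale (SE 0.19, adjusted p = 0.0136), a call that every fit without 1 library kept. Within CD49a- cells *Cd244a* was not called (−0.68, adjusted p = 0.699), and within CD49a+ cells it was (−1.31, adjusted p = 0.0053). Of 17 checkpoint genes it was the 1 that fell, against 0.603% of all genes lower. *Tigit*, an inhibitory receptor, was the 1 that rose, against 1.15% of all genes higher (1.21, SE 0.33, adjusted p = 0.0945). The list's median was −0.51. Limma-voom called 8 of the 17, with a median of −0.74, DESeq2 called 4, and edgeR without a filter on low counts 5. The checkpoint count of 2 was 3 without LM CD49a+ NK 2, 4 without LM CD49a- NK 2, and 1 without LM CD49a- NK 1, MFL NK 2 or 3, LM CD49a+ NK 1 or 3, or any single MFL ILC1 library.

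*Ncr1* and *Klrd1* were named after their values were seen. Of the 10 type 1 lymphocyte markers *Ncr1* was the 1 called and it fell, against 0.603% of all genes lower. The 10 had 5 positive and 5 negative shifts and a median of 0.07. *Ncr1*, which encodes NKp46, the receptor used in the sort gate, was at 494.6, 612.6 and 790.3 CPM in LM and at 866.5, 956.0 and 1075.7 CPM in MFL (−0.63, SE 0.16, adjusted p = 0.0784). *Klrd1*, which encodes CD94, was at 101.4, 156.1 and 200.4 CPM in LM and at 219.1, 248.7 and 294.9 CPM in MFL (−0.68, SE 0.17, adjusted p = 0.0706). Neither overlapped between sites.

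*Dtx1*, a Notch pathway ubiquitin ligase, was at 0.0, 4.99 and 9.07 CPM in LM and at 13.2, 63.8 and 194.0 CPM in MFL (−3.62, SE 0.87, adjusted p = 0.0604). MFL ILC1 averaged 149.4 CPM and MFL NK cells 22.8 CPM. *Ctsa*, the lysosomal cathepsin A, was at 58.1 to 74.2 CPM in LM and 83.3 to 159.8 CPM in MFL (−0.91, SE 0.20, adjusted p = 0.0395). *Twf2*, an actin-binding protein, was at 12.9 to 56.8 CPM in LM and 61.2 to 98.2 CPM in MFL (−1.38, SE 0.36, adjusted p = 0.0884). Each of these 3 was lower in every LM library. *Cdc42ep1*, a CDC42 effector, was at 0.0 to 1.5 CPM in LM and 2.65 to 43.7 CPM in MFL (−5.26, SE 1.33, adjusted p = 0.0753). *Zfp1001*, *Iqce*, *Rtn4rl1*, *Taf7* and *Slf2* completed the named lower genes, with shifts of −1.73, −1.27, −1.24, −1.03 and −0.99.

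**Figure D4:**
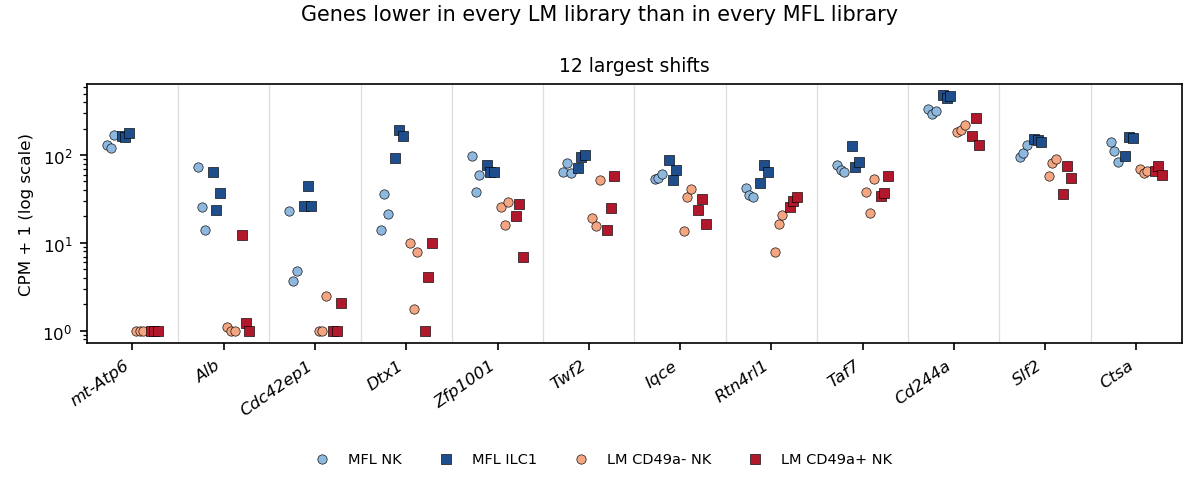
CPM + 1 (log scale) in each of the 12 libraries for the 12 largest shifts among genes of at least 5 CPM that were lower in every LM than in every MFL library, with colors and symbols by population. *Cd244a* spans 130.1 to 263.7 CPM in LM and 293.6 to 477.3 CPM in MFL, and *mt-Atp6*, whose reads cannot be told from those of a nuclear copy, is at 0 in every LM library.

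The most extreme lower gene cannot be read as a change in expression. *mt-Atp6* (chrM:7927-8607), a mitochondrial subunit of ATP synthase, had 0 counts in all 6 LM libraries and 119.3 to 177.2 CPM in all 6 MFL libraries, which is at least 530-fold lower in LM when each LM library is set to 3 counts. However, 99.5% of its 31-base words occur in *Atp6-ps*, a pseudogene on chromosome 1, so the assignment of reads between them is uncertain. *Atp6-ps* itself was at 327.9 to 1230.0 CPM in LM and 394.7 to 2419.5 CPM in MFL. The sum of both was 327.9 to 1230.0 CPM in LM and 552.5 to 2582.4 CPM in MFL, and overlapped. Of the 14 mitochondrial genes *mt-Atp6* was the 1 called, against 0.603% of all genes lower.

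Several of the lower genes are made by hepatocytes. *Alb*, albumin, was at 0.0, 0.0557 and 11.2 CPM in LM and at 13, 30.2 and 72.4 CPM in MFL (−5.60, SE 1.38, adjusted p = 0.0706). Of 8 hepatocyte markers tested, 5 fell (*Alb*, *Apob*, *Fga*, *Fgg* and *Ahsg*) and 0 rose, against 0.603% of all genes lower. The 5 were all among the 38 lower non-overlapping genes. *Hpx*, *Pzp*, *Itih4* and *Gc*, which the liver secretes into plasma, were also among the 38 and were named after their values were seen. Over the whole list, 10 of 14 markers had 0 counts in every LM library and 0 of 14 in every MFL library. Its summed level was 12 to 64.1 CPM in LM and 36.4 to 238 CPM in MFL (exact permutation, 2-sided p = 0.01, adjusted p = 0.105). *Trf* made up most of the sum in every LM library, at 10.4 to 62.1 CPM, and was at 16 to 91.4 CPM in MFL. The 5 Kupffer cell markers summed to 0 CPM in every LM library and 0.367 to 5.53 CPM in MFL (exact permutation p = 0.005, adjusted p = 0.105). Neutrophil markers summed to 0 to 2.09 CPM in LM and 0 to 155 CPM in MFL (exact permutation p = 0.02, adjusted p = 0.14), where *Mmp9* in ILC1 made up the high values. Endothelial markers ran the other way, at 79.2 to 281 CPM in LM and 86.5 to 154 CPM in MFL (exact permutation p = 0.035, adjusted p = 0.147), and 7 of their 8 genes, all but *Pecam1*, had 0 counts in every LM library. The part of these cells in any other difference was not tested.

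The 158 called genes whose sites overlapped split by direction. All 114 higher ones had positive shifts in both strata, and the interaction was called for 13 of them. Of the 44 lower ones, 43 had negative shifts in both strata, but in 29 the mean of MFL ILC1 was over 5 times that of every other population. *Adam19*, a metalloprotease, was at 0 counts in all 6 LM libraries and at 0.0 to 298.0 CPM in MFL. *P2rx7*, an ATP-gated channel, was at up to 2.42 CPM in LM and 0.0 to 215.7 CPM in MFL. *Zfp683* was at 0.0 to 8.81 CPM in LM and 0.0817 to 235.9 CPM in MFL. For such genes the additive fit reads a difference between MFL ILC1 and the other 3 populations as one of site. Some of the 114 higher genes mirrored this, being low mainly in MFL ILC1, but such genes were not counted. *Il18r1* averaged 76.1 CPM in MFL ILC1, 453.6 in MFL NK, 499.7 in LM CD49a- NK and 384.3 in LM CD49a+ NK cells. In the same order *Lef1* averaged 21.2, 119.5, 140.4 and 112.7 CPM.

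Of the 40 named genes that were called, 18 stayed called in all 12 fits that left out 1 library, and 16 of these were higher in LM without overlap. They were *Hspa1a*, *Hspa1b*, *Nr4a3*, *Crem*, *Pde4d*, *Tgfb1*, *Smad7*, *Skil*, *Tgif1*, *Nfkb1*, *Nfkb2*, *Traf1*, *Stat3*, *Hif1a*, *Litaf* and *Abcb1b*. The call of *Lmna* was lost without MFL ILC1 1 or 2 (adjusted p up to 0.135), that of *Ret* without any single MFL ILC1 library (up to 0.137), and that of *Zfp1001* without MFL NK 1 (0.106). The call of *Ctsa* was lost without MFL NK 1, MFL ILC1 2 or 3, or LM CD49a+ NK 3 (up to 0.148), and that of *Tcf7* without those or LM CD49a+ NK 1 (up to 0.164). *Hsp90ab1*, *Slf2*, *Dtx1* and *Cxcr4* each lost the call without 6 of the libraries, *Alb* and *Cdc42ep1* without 7, *Spsb1* and *Iqce* without 8, and *Tgif2*, *Taf7*, *Twf2* and *Rtn4rl1* without 9. Without each of these libraries the adjusted p of these genes reached at most 0.284.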

How the data were processed

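Bulk RNA-seq of 12 libraries of sorted type 1 lymphocytes was analyzed, 3 for each of 4 populations, grouped by their surface labels. The authors made stranded total RNA libraries (SMARTer Pico kit), trimmed reads with Trim Galore, quantified them with Salmon v1.5.0 on GENCODE M27 (GRCm39) and summed transcripts to genes with tximport. The deposited table holds unnormalized estimated counts of 54309 genes, of which 53700 were named from GENCODE vM39 of GRCm39. Macrophage libraries and single-cell data were not used here.

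Whole-number estimated counts went into edgeR v4.0.16 (R v4.3.3), with filterByExpr (13594 genes kept), TMM and the quasi-likelihood test, fitted to CD49a status plus site. Site within each status and the interaction came from a fit of 4 group means. P-values were Benjamini-Hochberg adjusted over all genes tested, and genes under 0.1 were called. The SE is the log2 fold change divided by the square root of F, and is approximate. Library totals (8795721 to 14386834) limit precision for genes under 5 CPM. A floor of 3 counts per library covers counting error only. Library measures were compared by exact permutation within CD49a status.

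Genes named were the 12 largest shifts per direction among called, non-overlapping genes averaging 5 CPM or more with a symbol other than Gm or Rik. From each function list, up to 4 called, non-overlapping genes were named, or else the 2 with the lowest p. Members and lists were chosen with earlier results of these data known. The heat shock and cAMP motifs were added after the data were seen. Alternatives were DESeq2 v1.42.0, limma-voom (limma v3.58.1), other size factors, other filters, the average of both strata, a replicate block and fits without 1 library. The fit was checked on simulated counts. Figures used matplotlib v3.10.9.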

Additional observations from a re-analysis of the deposited data

Results flagged for a closer look

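In 92 site groups of 6 libraries, from 46 named genes, 2 single libraries stood apart by Dixon's criterion on log2(CPM + 1), which chance alone gives in about 1 of 20 groups. *Alb* was at 11.2 CPM in LM CD49a+ NK 1 and at 0 to 0.235 CPM in the other LM libraries. *Spsb1* was at 3.13 CPM in MFL ILC1 3 and at 0 to 0.659 CPM in the other MFL libraries.

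For 5 of the 46 named genes the shift between sites differed between CD49a+ and CD49a- cells by the test of the interaction. The difference of the log2 fold changes (CD49a+ minus CD49a-) was 3.04 for *Lmna* (adjusted p = 0.0392), 6.04 for *Cxcr4* (adjusted p = 0.0125), 1.49 for *Pfkp* (adjusted p = 0.0277), 2.46 for *Top2a* (adjusted p = 0.0299) and 2.11 for *Mki67* (adjusted p = 0.067). In each the LM CD49a+ NK cells exceeded MFL ILC1 by more than the LM CD49a- NK cells exceeded MFL NK cells. Outside the 46, the interaction was also called for *Il18r1* (2.2, adjusted p = 0.00331), *Gramd2b* (3.98, adjusted p = 0.0876) and *Vegfa* (4.42, adjusted p = 0.0905). Site and cell type cannot be told apart in the CD49a+ cells.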

How the results depend on the processing

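No named gene changed direction under any of the 20 alternatives, and 15 of the 40 called named genes were called under all of them. Without a filter on low counts, 398 genes were higher and 213 lower in LM, with 158 called in CD49a- cells, 774 in CD49a+ cells and 264 for the interaction. With at least 5 CPM in 3 libraries, 5 were called in CD49a- cells and 90 lower genes did not overlap. DESeq2 gave 395 higher, 249 lower, 161, 1010 and 349. Limma-voom gave 278 higher, 372 lower, 104 and 935, with an all-gene median of −0.36 against −0.09. The average of the 2 strata gave 273 higher and 153 lower. Without both LM libraries numbered 3, chosen after the data were seen, 75 were higher, 49 lower, 218 called in CD49a- cells and 257 for the interaction, and 152 higher and 455 lower genes did not overlap. Of the 42 higher and 38 lower called, non-overlapping genes, 26 and 7 were then called. The causes were not tested, except that fewer libraries make overlap less frequent by construction.

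When 1 library was left out, 57 to 244 genes were higher and 21 to 145 lower. Calls were 1 to 110 in CD49a- cells, 257 to 708 in CD49a+ cells and 75 to 256 for the interaction, and 62 to 119 higher and 182 to 343 lower genes did not overlap.

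Correlations of deviations between libraries with the same replicate number were −0.094 to 0.061 over 18 pairs, and −0.1 to 0.065 over 36 pairs with different numbers, so the numbers were not used as pairs. The order of the LM libraries was, however, shared by both LM populations for 59% of immediate early genes against 3.1% of all genes. With a replicate block 172 genes were called, 164 of them among the 238, and 36 of the 42 higher and 16 of the 38 lower non-overlapping genes were called. The block ended 6 named calls: *Slc7a5* (adjusted p = 0.107), *Iqce* (0.11), *Rtn4rl1* (0.11), *Tgif2* (0.114), *Cxcr4* (0.12) and *Top2a* (0.132).

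Depth limits the lower genes most: 22 of the 38 had a mean under 5 CPM, and LM libraries had fewer genes with at least 10 counts.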

Other observations

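Other called genes of at least moderate level rose in LM with overlapping sites. *Gramd2b* was at 25.5 to 414.9 CPM in LM and 1.02 to 27.4 CPM in MFL (log2 fold change 4.63, SE 0.81, adjusted p = 0.0087). Its interaction of site and CD49a status was called (3.98, adjusted p = 0.0876). *Rgs16*, a regulator of G protein signaling, was at 21.5 to 164.0 CPM and 1.14 to 25.3 CPM (3.85, SE 0.65, adjusted p = 0.00721). *Nrarp*, a Notch-induced feedback inhibitor, was at 60.8 to 272.1 CPM in LM and 5.2 to 67.7 CPM in MFL (2.94, SE 0.54, adjusted p = 0.0114), whereas the Notch pathway ligase *Dtx1* was lower in LM. Within CD49a- cells neither *Nrarp* (1.61, adjusted p = 0.564) nor *Dtx1* (−2.04, adjusted p = 0.738) was called. Within CD49a+ cells, where ILC1 stand for MFL, their shifts were 4.32 and −5.2. *Kdm6b*, a histone H3K27 demethylase, was at 344.0 to 2506.7 CPM in LM and 154.6 to 357.8 CPM in MFL (2.26, SE 0.38, adjusted p = 0.00721). These genes were picked after their values were seen.

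Of 83 ribosomal protein genes 2 rose (*Rpl29* and *Rpl18*), a share near the 1.15% of all genes. The median shift of the 83 was 0.42, with 0.05 in CD49a- and 0.76 in CD49a+ cells. Of 64 histone genes the median shift was 0.65, with −0.46 in CD49a- and 1.77 in CD49a+ cells. Of 14 mitochondrial genes 13 had negative shifts, with a median of −0.85. The T cell markers summed to 104 to 258 CPM in LM and 95.9 to 1035 CPM in MFL (exact permutation, 2-sided p = 0.065, adjusted p = 0.195). The high MFL values were those of ILC1, at 621 to 1035 CPM, whereas MFL NK libraries were at 95.9 to 173 CPM. In MFL ILC1 *Cd3g* was at 224.5 to 667.9 CPM, while *Cd3e* was at 0 to 0.366 CPM.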
